A study of Mus musculus with 30 samples.

Results

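The cell cycle genes described here are 41 of the 45706 genes in the deposited RNA tables, taken by name from a list of genes that act in replication, cyclin-dependent kinase control and mitosis. They comprise 12 genes of origin licensing and the replicative helicase, 4 of DNA synthesis, 7 cyclins and kinases of S and M phase, 3 D-type cyclins, 11 genes of mitosis, 2 transcription factors and 2 inhibitors. Each name matched 1 Ensembl ID, and all 41 passed the filter on low counts in both fits.

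The study is about Mnx1, also called Hb9, a homeobox gene that marks motor neurons, in cells differentiated from mouse embryonic stem (ES) cells. RNA was sequenced from HD motor neurons, EH motor neurons, wild-type motor neurons and wild-type ES cells, with 2 libraries in each group. HD and EH are the names of lines that both carry the genotype label Mnx1KO, and the labels explain neither name and do not say how the gene was changed or whether a line is 1 clone. Embryoid bodies of all 3 motor neuron groups received retinoic acid (1 µM) and the Smoothened agonist SAG (1 µM), then the same pair with doxycycline (1 µM) and the Notch pathway inhibitor DAPT (5 µM), and were collected on day 6, whereas ES cells were grown with serum and LIF. The labels name no sort, so each library is a whole culture, in which fewer cells of a type and less RNA per cell cannot be told apart. They also do not say that replicates were separate cultures, so standard errors and p-values cover the spread between these libraries, which may be technical. Histone marks were mapped by ChIP-seq in HD and wild-type motor neurons and Mnx1 in wild-type motor neurons, with 1 peak list for each target and genotype.

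Total expected counts were 11167544 and 12435800 in HD, 39761579 and 39685395 in EH, 13916957 and 13899577 in wild-type motor neurons, and 53223300 and 51304515 in ES cells. Mnx1 itself had 377 and 312 TPM (a length-scaled share of all transcripts) in HD, 446 and 565 in EH, 395 and 343 in wild-type motor neurons, and 0.36 and 0.29 in ES cells. A count over the whole gene cannot show a change inside it, so these values do not check the knockout labels. All 9 motor neuron markers and all 12 pan-neuronal markers were higher in wild-type motor neurons than in ES cells, and all 12 pluripotency markers were lower (edgeR, adjusted p below 0.05). Of 20 trophoblast markers, 16 were also higher, and the 20 had summed levels of 1686 and 2226 TPM in HD, 909.9 and 556 in EH replicates 1 and 2, and 2009 and 2267 in wild-type motor neurons.

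Before a cell copies its DNA, the origin recognition complex with Cdc6 and Cdt1 loads the Mcm2 to Mcm7 ring on origins, and Cdc45 and the GINS complex turn it into the active helicase. Cyclins bound to their kinases order the steps, E2F factors drive the genes of S phase, and the DREAM and MuvB complexes, with Foxm1, control the genes of mitosis through promoter elements known as CHR and CCAAT boxes, the second of which is bound by NF-Y. Neurons are post-mitotic: spinal progenitors stop dividing as they become motor neurons, a step in which inhibitors such as Cdkn1b and Cdkn1c are known to act and which blocking of Notch promotes.

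The promoters of replication and mitosis genes printed here are examples that hold the words marked, and are not a ranking by size of change. The helicase subunit Mcm6, the licensing factor Cdc6 and the nucleotide enzyme Rrm1 are shown with E2F words. The kinase Cdk1 and the mitotic genes Top2a, Cdc20 and Kif11 are shown with CHR words. These examples do not stand for their roles, since Orc1 and Pcna, for instance, held no E2F word. The inhibitors Cdkn1b and Cdkn1a, which ran against the other genes, are shown last. Each line gives the 150 bases before the RefSeq start on GRCm38.p6 (mm10), 5′ to 3′ on the strand of the gene. Capitals mark E2F words in Mcm6, Cdc6 and Rrm1, CHR words in Cdk1, Top2a, Cdc20 and Kif11, and the CCAAT word in Cdkn1b, each on either strand. The stretch of Cdkn1a before its downstream RefSeq start holds none of these words.
Mcm6 (chr1:128359706-128359855, minus strand): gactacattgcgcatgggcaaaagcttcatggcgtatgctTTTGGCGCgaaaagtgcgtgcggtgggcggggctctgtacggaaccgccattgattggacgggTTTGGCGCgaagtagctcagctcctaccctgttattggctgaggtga
Cdc6 (chr11:98908001-98908150, plus strand): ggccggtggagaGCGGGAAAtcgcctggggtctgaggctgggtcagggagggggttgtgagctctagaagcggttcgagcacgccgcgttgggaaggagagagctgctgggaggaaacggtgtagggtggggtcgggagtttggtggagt
Rrm1 (chr7:102441545-102441694, plus strand): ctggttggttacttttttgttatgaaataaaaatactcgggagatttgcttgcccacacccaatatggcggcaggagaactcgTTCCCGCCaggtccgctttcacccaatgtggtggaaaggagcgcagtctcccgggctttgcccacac
Cdk1 (chr10:69352913-69353062, minus strand): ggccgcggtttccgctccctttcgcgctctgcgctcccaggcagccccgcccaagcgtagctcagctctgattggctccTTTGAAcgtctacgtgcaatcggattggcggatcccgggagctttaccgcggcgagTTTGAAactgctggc
Top2a (chr11:99024190-99024339, minus strand): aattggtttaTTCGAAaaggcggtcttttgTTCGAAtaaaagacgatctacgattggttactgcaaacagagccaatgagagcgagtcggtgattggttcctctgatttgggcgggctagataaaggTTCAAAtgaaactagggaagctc
Cdc20 (chr4:118437344-118437493, minus strand): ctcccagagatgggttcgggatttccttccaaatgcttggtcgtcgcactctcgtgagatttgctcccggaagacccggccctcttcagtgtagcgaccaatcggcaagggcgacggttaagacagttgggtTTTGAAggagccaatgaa
Kif11 (chr19:37376232-37376381, plus strand): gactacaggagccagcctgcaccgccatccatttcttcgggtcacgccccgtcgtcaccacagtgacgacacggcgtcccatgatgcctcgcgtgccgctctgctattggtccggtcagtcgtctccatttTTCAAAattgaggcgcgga
Cdkn1b (chr6:134920251-134920400, plus strand): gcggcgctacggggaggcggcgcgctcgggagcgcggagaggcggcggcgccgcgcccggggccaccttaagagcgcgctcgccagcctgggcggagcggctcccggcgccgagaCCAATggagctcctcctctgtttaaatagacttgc
Cdkn1a (chr17:29093619-29093768, plus strand): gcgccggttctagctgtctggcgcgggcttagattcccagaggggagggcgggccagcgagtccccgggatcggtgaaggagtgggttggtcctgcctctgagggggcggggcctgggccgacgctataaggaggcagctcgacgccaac

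Cell cycle genes were mostly lower in wild-type motor neurons than in ES cells, and the 2 inhibitors were higher. Of 41 genes, 37 fell, 2 rose (Cdkn1a and Cdkn1b) and 2 (Ccne2 and Ccnd2) did not pass edgeR's quasi-likelihood test at a Benjamini-Hochberg adjusted p of 0.05. Calls were common over all genes, with 75.3% of 17770 genes called, 36.5% lower and 38.8% higher. In the fit of these 2 groups by themselves the counts of 37 and 2 did not change, with 76.4% of 17479 genes called. The median log2 fold change was -2.19 over the 41 genes and 0.02 over all genes tested. The fall was not complete: the median level relative to the ES mean in TPM was 26.97% in HD, 40.6% in EH and 34.4% in wild-type motor neurons. The EH value averages 2 libraries that lie far apart. The genes other than the inhibitors summed to 47.9% of the ES mean in EH replicate 1 and 23.4% in EH replicate 2. All 6 motor neuron libraries lay below both ES libraries for 36 of the 41 genes, against 21.1% of all genes. A TPM scale moves all genes against the scaled counts, since with limma on log2(TPM + 1) the median of all genes was 0.43 and that of the 41 genes -1.51. On that scale 35 genes fell and 3 rose, Rrm1 and Ccnd3 lost their calls and Ccne2 was called higher (0.92, limma adjusted p = 0.0126). Over all genes 73.5% were called there, 22.7% lower and 50.9% higher.

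**Figure D1:**
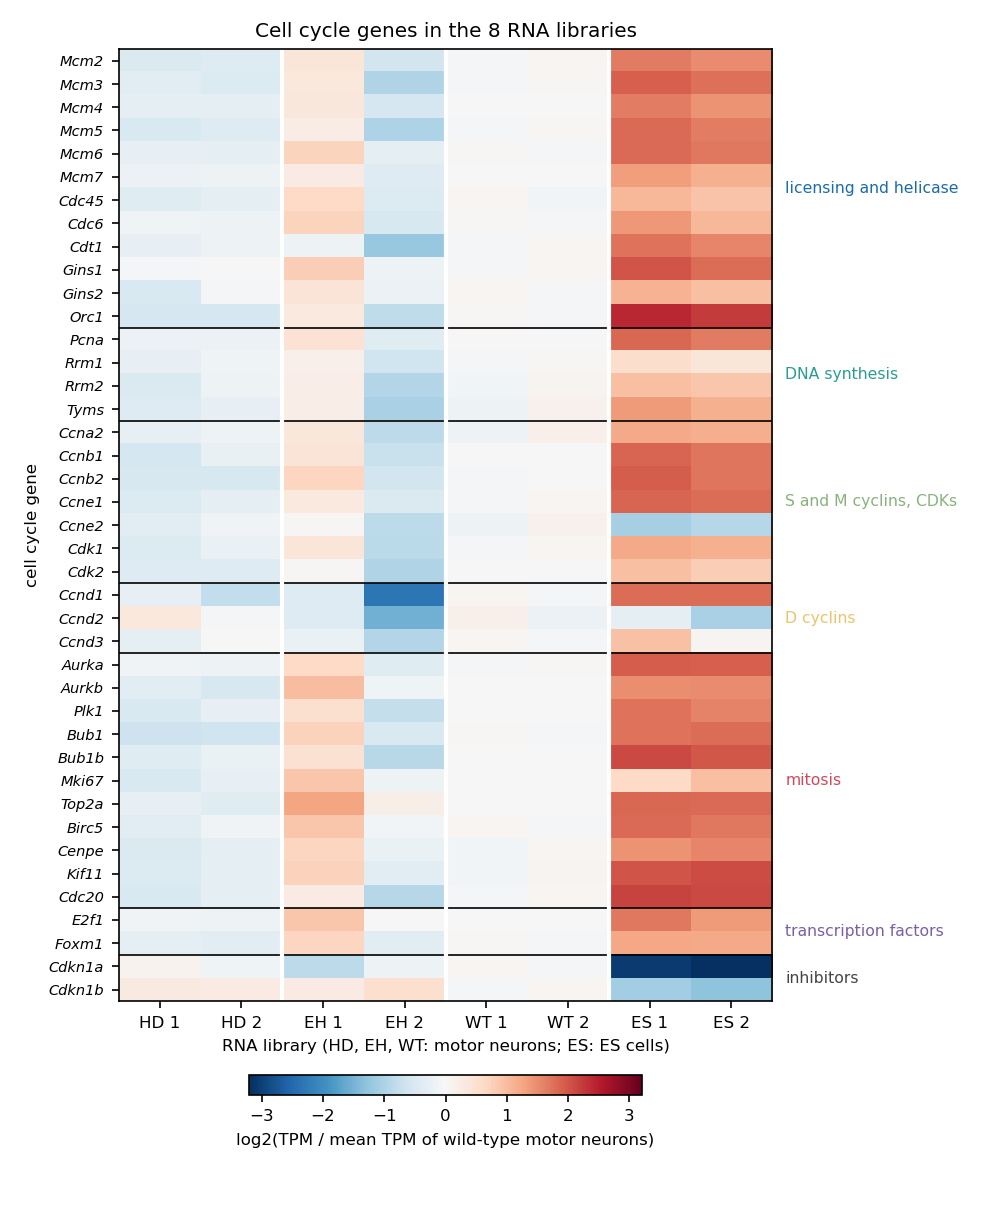
Levels of the 41 cell cycle genes (rows, by role) in the 8 RNA libraries (columns), as log2 of TPM over the mean TPM of wild-type motor neurons, red for higher and blue for lower. ES libraries are red for most rows and blue for Cdkn1a and Cdkn1b, and for 32 of the 41 genes EH 1 lies above and EH 2 below both wild-type motor neuron libraries.

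All 12 genes of licensing and the helicase fell, with a median log2 fold change of -2.26 (wild-type motor neurons over ES cells, range -3.03 to -0.61). The 6 Mcm genes encode the ring of the helicase. Mcm2 had 44.4 and 46.6 TPM in HD, 80.7 and 40.8 in EH, 59.2 and 64.1 in wild-type motor neurons, and 195 and 177 in ES cells. Mcm3 had 41.4 and 39.3 TPM in HD, 67.9 and 27.5 in EH, 52.03 and 55.1 in wild-type motor neurons, and 203 and 181 in ES cells. Mcm4 had 30.6 and 30.6 TPM in HD, 48.4 and 25.8 in EH, 37.3 and 38.03 in wild-type motor neurons, and 117 and 103 in ES cells. The log2 fold changes of wild-type motor neurons over ES cells were -2.24 ± 0.27 for Mcm2, -2.46 ± 0.35 for Mcm3 and -2.19 ± 0.25 for Mcm4. Mcm5 had 37.7 and 40.2 TPM in HD, 62.4 and 26.8 in EH, 51.6 and 54.4 in wild-type motor neurons, and 186 and 165 in ES cells. Mcm6 had 39.8 and 38.7 TPM in HD, 78.5 and 38.98 in EH, 49.1 and 46.5 in wild-type motor neurons, and 167 and 154 in ES cells. Mcm7 had 99.96 and 102 TPM in HD, 137 and 85.6 in EH, 114 and 115 in wild-type motor neurons, and 287 and 252 in ES cells. Mcm7 kept the highest level of the 6 in every library, and the log2 fold changes were -2.37 ± 0.33 for Mcm5, -2.40 ± 0.28 for Mcm6 and -1.91 ± 0.21 for Mcm7. Cdc45 had 14.8 and 15.7 TPM in HD, 30.2 and 14.3 in EH, 20.4 and 18.4 in wild-type motor neurons, and 40.6 and 36.8 in ES cells. Gins1 had 13.4 and 13.9 TPM in HD, 23.7 and 12.3 in EH, 13.1 and 14.4 in wild-type motor neurons, and 55.1 and 47.2 in ES cells. Gins2 had 18.7 and 24.99 TPM in HD, 34.9 and 22.9 in EH, 27.1 and 25.1 in wild-type motor neurons, and 55.99 and 50.5 in ES cells. These 3 genes complete the active helicase, and Gins2 changed least of the 12, with log2 fold changes of -1.68 ± 0.29 for Cdc45, -2.52 ± 0.29 for Gins1 and -0.61 ± 0.19 for Gins2. Orc1 had 7.74 and 7.69 TPM in HD, 13.8 and 6.32 in EH, 11.6 and 10.8 in wild-type motor neurons, and 59.6 and 52.4 in ES cells. Cdc6 had 14.8 and 14.4 TPM in HD, 26.3 and 11.4 in EH, 16.6 and 15.7 in wild-type motor neurons, and 42.1 and 33.7 in ES cells. Cdt1 had 28.7 and 30.9 TPM in HD, 30.9 and 15.1 in EH, 33.2 and 36.3 in wild-type motor neurons, and 116 and 102 in ES cells. The loading factors fell with log2 fold changes of -3.03 ± 0.31 for Orc1, -1.84 ± 0.33 for Cdc6 and -2.29 ± 0.29 for Cdt1, and Orc1, the largest subunit of the origin recognition complex, had the largest fall of all 41 genes. The highest edgeR adjusted p among the 12 was 0.0163, for Gins2, which lost its call when either wild-type library or ES replicate 1 was left out, with edgeR adjusted p-values of 0.0791, 0.0852 and 0.0589.

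The 4 genes of DNA synthesis fell, and for Rrm1, Rrm2 and Tyms the size of the change was below the median of the 41 genes. Pcna is the sliding clamp of the polymerases, Rrm1 and Rrm2 are the subunits of ribonucleotide reductase, and Tyms makes thymidylate. Pcna had 79.5 and 79.8 TPM in HD, 125 and 69.3 in EH, 92.02 and 89.5 in wild-type motor neurons, and 327 and 288 in ES cells. Rrm1 had 44.6 and 48.4 TPM in HD, 60.2 and 34.6 in EH, 51.8 and 55.2 in wild-type motor neurons, and 78.5 and 70.1 in ES cells. Rrm2 had 58.6 and 71.7 TPM in HD, 93.3 and 42.2 in EH, 75.2 and 85.7 in wild-type motor neurons, and 157 and 148 in ES cells. ES cells were above every motor neuron library for all 3. Tyms had 47.7 and 52.9 TPM in HD, 74.6 and 30.9 in EH, 57.3 and 70.4 in wild-type motor neurons, and 165 and 141 in ES cells. The log2 fold changes of wild-type motor neurons over ES cells were -2.32 ± 0.24 for Pcna, -1.12 ± 0.23 for Rrm1, -1.54 ± 0.32 for Rrm2 and -1.67 ± 0.19 for Tyms, with edgeR adjusted p-values between 3.5e-05 and 0.00228. The processed pseudogene Pcna-ps2 was listed at 27.01 to 45.7 TPM in motor neurons and 133 and 128 TPM in ES cells, so the split of reads between it and Pcna is uncertain.

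Of the cyclins and kinases of S and M phase, 6 of 7 fell and Ccne2 did not pass. Ccna2 acts in S phase and at mitotic entry, Ccnb1 and Ccnb2 activate Cdk1 in mitosis, and Ccne1 and Ccne2 activate Cdk2 at the start of S phase. Ccna2 had 44.6 and 47.8 TPM in HD, 68.8 and 29.9 in EH, 47.7 and 59.6 in wild-type motor neurons, and 123 and 119.7 in ES cells. Ccnb1 had 55.3 and 69.4 TPM in HD, 109 and 49.6 in EH, 81.6 and 81.5 in wild-type motor neurons, and 296 and 267 in ES cells. Ccnb2 had 20.8 and 20.9 TPM in HD, 47.5 and 19.9 in EH, 29.2 and 30.3 in wild-type motor neurons, and 113 and 97.7 in ES cells. The log2 fold changes were -1.83 ± 0.32 for Ccna2, -2.36 ± 0.32 for Ccnb1 and -2.47 ± 0.35 for Ccnb2. The pseudogene Ccnb2-ps was listed at 3.79 to 5.92 TPM in motor neurons and 2.49 and 2.14 TPM in ES cells. How reads were shared between Ccnb2 and this copy is not given in the sources used here, so the values of Ccnb2 are uncertain. Cdk1 had 98.8 and 115 TPM in HD, 174 and 73.5 in EH, 128 and 138 in wild-type motor neurons, and 309.9 and 294 in ES cells. Cdk2 had 21.5 and 21.6 TPM in HD, 29.3 and 14.6 in EH, 28.2 and 28.7 in wild-type motor neurons, and 55.02 and 49.4 in ES cells. The kinases fell by less than the B-type cyclins in these values, -1.80 ± 0.33 for Cdk1 and -1.51 ± 0.27 for Cdk2, and the differences were not tested. Ccne1 had 41.04 and 44.4 TPM in HD, 68.9 and 40.2 in EH, 52.8 and 57.9 in wild-type motor neurons, and 201 and 189 in ES cells. Ccne2 had 16.4 and 19.3 TPM in HD, 21.6 and 11.7 in EH, 18.8 and 23.2 in wild-type motor neurons, and 9.96 and 11.1 in ES cells. The 2 E-type cyclins therefore ran apart: Ccne1 fell (-2.43 ± 0.23, edgeR adjusted p = 2.13e-05), whereas Ccne2 had 0.07 ± 0.27 (edgeR adjusted p = 0.82), with all 6 motor neuron libraries above both ES libraries in TPM. The sign of Ccne2 turned without wild-type replicate 2 (-0.17) or ES replicate 1 (-0.018).

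The 3 D-type cyclins, which activate Cdk4 and Cdk6 in response to growth signals, did not move as a group. Ccnd1 had 13.1 and 9.16 TPM in HD, 11.8 and 3.17 in EH, 16.5 and 15.02 in wild-type motor neurons, and 54.3 and 54.7 in ES cells. Ccnd2 had 9.49 and 7.31 TPM in HD, 5.72 and 2.61 in EH, 8.44 and 6.66 in wild-type motor neurons, and 6.05 and 3.66 in ES cells. Ccnd3 had 64.6 and 78.9 TPM in HD, 67.6 and 40.9 in EH, 82.6 and 75.03 in wild-type motor neurons, and 150 and 83.7 in ES cells. Ccnd1 fell (-2.49 ± 0.49, edgeR adjusted p = 0.00185) and Ccnd3 fell less (-1.17 ± 0.31, edgeR adjusted p = 0.00837), with its ES replicates 0.84 apart on the log2 TPM scale. Ccnd2 had 0.26 ± 0.32 (edgeR adjusted p = 0.468), and its sign turned without ES replicate 2 (-0.051). Ccnd3 lost its call without wild-type replicate 2 (edgeR adjusted p = 0.0568) or ES replicate 1 (adjusted p = 0.058).

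All 11 genes of mitosis fell, with a median log2 fold change of -2.53 (range -2.78 to -1.45). Aurka, Aurkb and Plk1 are mitotic kinases of centrosomes, chromosomes and spindle. Aurka had 24.98 and 23.99 TPM in HD, 41.9 and 20.5 in EH, 26.4 and 27.5 in wild-type motor neurons, and 104 and 101 in ES cells. Aurkb had 17.97 and 16.3 TPM in HD, 45.6 and 20.9 in EH, 23.1 and 23.2 in wild-type motor neurons, and 64.9 and 65.6 in ES cells. Plk1 had 25.8 and 30.4 TPM in HD, 51.7 and 21.4 in EH, 36.2 and 36.6 in wild-type motor neurons, and 122 and 109 in ES cells. The log2 fold changes of these kinases were -2.58 ± 0.29 for Aurka, -2.10 ± 0.30 for Aurkb and -2.31 ± 0.35 for Plk1. Bub1 had 10.5 and 10.8 TPM in HD, 27.9 and 11.9 in EH, 17.2 and 16.1 in wild-type motor neurons, and 55.4 and 57.9 in ES cells. Bub1b had 20.4 and 23.3 TPM in HD, 37.8 and 14.5 in EH, 27.04 and 26.8 in wild-type motor neurons, and 116 and 107 in ES cells. Cdc20 had 44.02 and 50.04 TPM in HD, 73.6 and 33.1 in EH, 59.3 and 64.4 in wild-type motor neurons, and 277 and 266 in ES cells. Bub1 and Bub1b act in the spindle checkpoint and Cdc20 activates the anaphase-promoting complex, and their log2 fold changes were -2.45 ± 0.31 for Bub1, -2.62 ± 0.37 for Bub1b and -2.78 ± 0.31 for Cdc20. Cenpe had 6.14 and 6.77 TPM in HD, 13.6 and 7.32 in EH, 8.03 and 8.93 in wild-type motor neurons, and 22.9 and 25 in ES cells. Kif11 had 10.96 and 11.8 TPM in HD, 24.7 and 11.7 in EH, 13.9 and 15.5 in wild-type motor neurons, and 59.8 and 62.3 in ES cells. Birc5 had 49.1 and 56.9 TPM in HD, 115 and 58.7 in EH, 64.3 and 59.7 in wild-type motor neurons, and 217 and 199.7 in ES cells. Cenpe and Kif11 are motor proteins of the spindle and Birc5 (survivin) belongs to the chromosomal passenger complex, with log2 fold changes of -2.07 ± 0.27 for Cenpe, -2.69 ± 0.30 for Kif11 and -2.53 ± 0.27 for Birc5. Top2a had 59.3 and 53.9 TPM in HD, 169.8 and 80.5 in EH, 71.8 and 70.1 in wild-type motor neurons, and 254 and 248 in ES cells. Mki67 had 13.4 and 15.6 TPM in HD, 34.4 and 16.7 in EH, 18.96 and 18.4 in wild-type motor neurons, and 29.2 and 36.3 in ES cells. Top2a, which untangles chromosomes, had a log2 fold change of -2.58 ± 0.29, and Mki67, the Ki-67 proliferation antigen, had one of -1.45 ± 0.29. Mki67 changed least of the 11, and the highest edgeR adjusted p among them was 0.00199.

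The transcription factors E2f1, which drives S-phase genes, and Foxm1, which drives mitotic genes, both fell. E2f1 had 6.42 and 6.19 TPM in HD, 12.9 and 7.02 in EH, 7.09 and 6.88 in wild-type motor neurons, and 22.3 and 18.01 in ES cells. Foxm1 had 13.02 and 12.8 TPM in HD, 25.8 and 12.6 in EH, 16.5 and 15.6 in wild-type motor neurons, and 37.95 and 37.01 in ES cells. Their log2 fold changes were -2.18 ± 0.27 for E2f1 and -1.78 ± 0.29 for Foxm1 (edgeR adjusted p = 0.000124 and 0.000589). Of the 2 CDK inhibitors, Cdkn1a had 204 and 170 TPM in HD, 105 and 167 in EH, 197 and 179 in wild-type motor neurons, and 22.4 and 20.7 in ES cells. Cdkn1b had 42.1 and 41.1 TPM in HD, 41 and 48.8 in EH, 32.7 and 35.8 in wild-type motor neurons, and 15.9 and 13.9 in ES cells. Both rose, Cdkn1a with 2.52 ± 0.20 on the log2 scale (edgeR adjusted p = 9.62e-06) and Cdkn1b with 0.43 ± 0.12 (edgeR adjusted p = 0.0116), and all 6 motor neuron libraries lay above both ES libraries for these and for Ccne2, where 57.2% of all genes did so. Cdkn1b lost its call without wild-type replicate 2 (edgeR adjusted p = 0.0759) or ES replicate 2 (adjusted p = 0.0723).

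**Figure D2:**
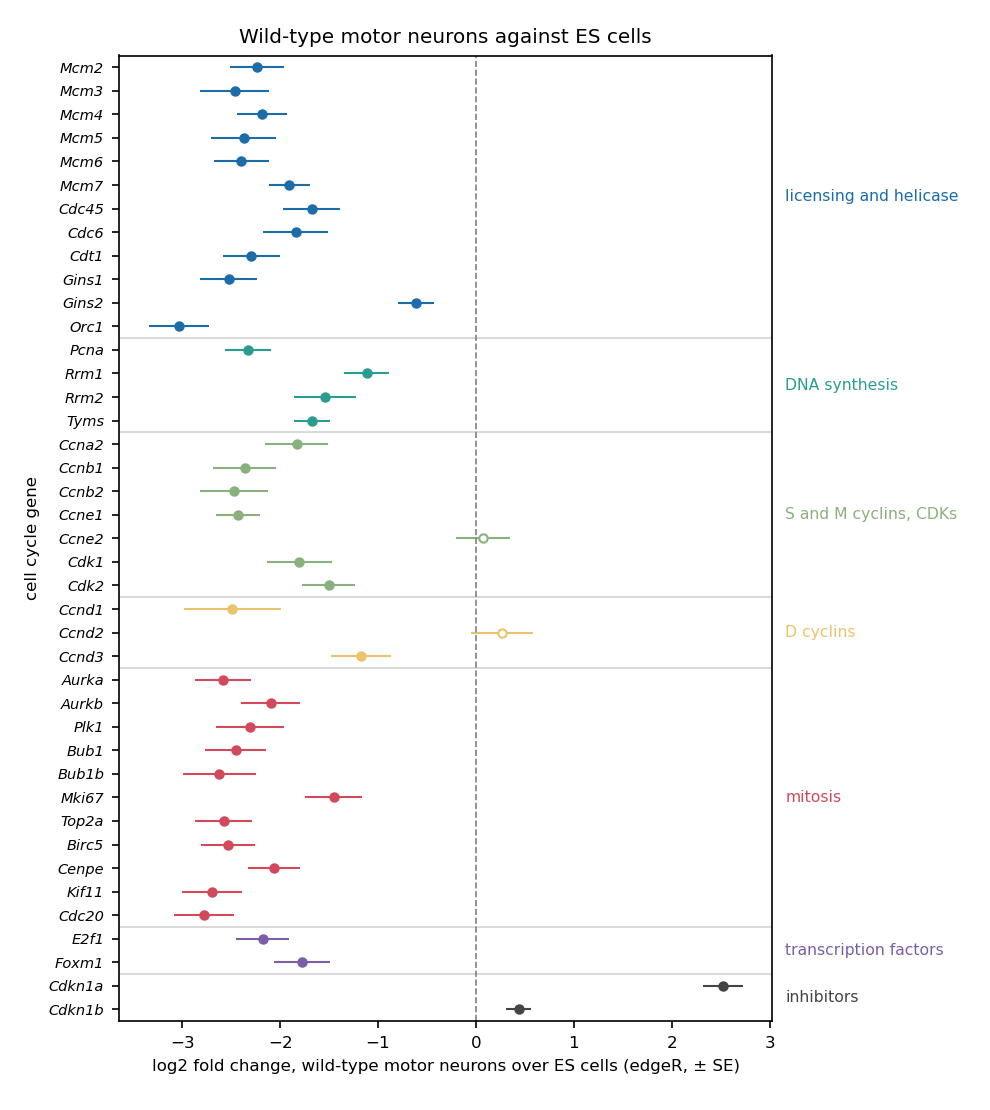
Log2 fold change of wild-type motor neurons over ES cells (x axis, edgeR, bars ± SE from 2 libraries in each group) for the 41 cell cycle genes by role. Filled points passed an adjusted p of 0.05. The points of 37 genes lie left of 0 and filled, Cdkn1a and Cdkn1b lie right of 0, and Ccne2 and Ccnd2 are open.

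Genes of the wider cell cycle were counted from lists made by role. Over all 17770 genes tested, 36.5% were called lower and 38.8% higher, and 22.7% and 50.9% on the log2(TPM + 1) scale with limma. Beside these shares, counts in the short lists of 5 inhibitors and 15 p53 targets are not read as a trait of the list. Of 38 further replication genes, all 38 fell (median -1.80), including the origin recognition subunits Orc2 (-1.76 ± 0.12) and Orc5 (-1.81 ± 0.12), the clamp loader Rfc1 (-1.64 ± 0.12) and the polymerase delta subunit Pold2 (-1.96 ± 0.15). Of 49 further mitosis genes, all 49 fell (median -2.18), including the spindle genes Hmmr (-3.12 ± 0.28) and Kif20b (-2.71 ± 0.26), the condensin subunit Smc2 (-2.13 ± 0.20) and the cytokinesis gene Ect2 (-3.17 ± 0.30). On the log2(TPM + 1) scale with limma, 33 of the 38 and 42 of the 49 fell, and 1 of the 49 rose. Genes of the G1 to S decision were mixed, with 12 of 21 lower and 2 higher: the kinase Cdk6 (-3.33 ± 0.23), E2f4 (-1.56 ± 0.12) and the E2F partner Tfdp2 (-1.71 ± 0.10) fell, and the retinoblastoma gene Rb1 rose (2.04 ± 0.14). With log2(TPM + 1), 7 of the 21 were lower and 5 higher. Of 5 other CDK inhibitors, 3 rose, Cdkn1c (3.53 ± 0.61), Cdkn2d (2.13 ± 0.12) and Cdkn2c (1.17 ± 0.40), and none fell. Cdkn2c lost its call when any 1 library was left out and with DESeq2 (adjusted p = 0.0621). Cdkn1c had 684 and 801 TPM in HD, 151 and 31.04 in EH, 695 and 775 in wild-type motor neurons, and 39.1 and 42.6 in ES cells. Cdkn1c is also known from placenta, and the trophoblast markers given above rose as well; their part in this value was not tested. Targets of p53, the damage-response factor known to induce Cdkn1a, went both ways, with 3 of 15 higher and 7 lower. Sesn1 rose (1.56 ± 0.13), and Gadd45a (-2.34 ± 0.13), Bax (-1.23 ± 0.08) and Mdm2 (-0.997 ± 0.10) fell. On the log2(TPM + 1) scale 6 of the 15 were higher and 5 lower. The part of p53 in the Cdkn1a value was not tested.

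Pluripotency markers kept a smaller share of their ES level than cell cycle genes did. Summed over the 12 pluripotency markers, motor neuron libraries had 107 and 98.5 TPM in HD, 233 and 93.6 in EH replicates 1 and 2, and 159 and 171 in wild-type motor neurons, against 7553 and 6725 in ES cells, which is 1.31% to 3.27% of the ES mean. The 39 cell cycle genes other than the inhibitors had sums of 23.4% to 47.9% of theirs. Pou5f1, a defining marker of pluripotency, was above 0 in every motor neuron library, at 6.38 to 22.5 TPM. The part of such cells in the levels of cell cycle genes was not tested.

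No cell cycle gene passed the test between HD and wild-type motor neurons, though the fitted values were below 0 for 39 of the 41. Of 41 genes, 0 were called, where 0.173% of 15565 genes were (0.135% higher and 0.0385% lower), and 0 had an unadjusted p under 0.05 in edgeR or were called by DESeq2. The median log2 fold change of HD over wild type was -0.29, against -0.01 over all genes tested. Both HD libraries lay below both wild-type libraries in TPM for 34 of the 41 genes, against 23.6% of all genes, and above them for Cdkn1b, against 18% of all genes. The median level in HD was 80.4% of the wild-type mean.

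By role, the median log2 fold changes of HD over wild type were -0.28 for licensing and helicase, -0.24 for DNA synthesis, -0.36 for S- and M-phase cyclins and kinases, -0.25 for D cyclins and -0.36 for mitosis. The lowest were -0.52 ± 0.35 for Bub1, -0.51 ± 0.38 for Ccnb2, -0.44 ± 0.35 for Mcm5, -0.43 ± 0.24 for Ccne1 and -0.43 ± 0.29 for Mcm2. Bub1 had 10.5 and 10.8 TPM in HD and 17.2 and 16.1 TPM in wild-type motor neurons, so the groups do not overlap. Cdkn1b was the highest, at 0.28 ± 0.12 (edgeR adjusted p = 0.904), and Cdkn1a had 0.01 ± 0.20. The wider lists had median log2 fold changes of HD over wild type of -0.21 over 38 replication genes, -0.29 over 49 mitosis genes, -0.12 over 21 G1 to S genes, 0.02 over 5 inhibitors and -0.02 over 15 p53 targets, and 0 calls in each. Pluripotency markers had a median log2 fold change of -0.64 over 12 genes, motor neuron markers -0.48 over 9 (7 below 0) and pan-neuronal markers 0.22 over 12 (11 above 0). Medians were 0.06 over 15 neural progenitor, -0.15 over 6 glial, -0.12 over 16 trophoblast, -0.35 over 6 endoderm and -0.12 over 7 mesoderm and fibroblast markers. None of these lists had a call in edgeR, and their part in the values of cell cycle genes was not tested.

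The fit behind these p-values shares 1 estimate of the spread with EH, whose libraries lie far apart for these genes. When EH was left out and HD and wild type were fitted by themselves, 4 genes were lower: Mcm5 (-0.43 ± 0.08, edgeR adjusted p = 0.0412), Top2a (-0.35 ± 0.07, 0.0432), Bub1 (-0.52 ± 0.10, 0.0444) and Mcm2 (-0.42 ± 0.08, 0.0459). There 26 of the 41 had an unadjusted p under 0.05, and 2.21% of 15182 genes were called, 0.507% as lower. With only EH replicate 1 or only EH replicate 2 left out of the shared fit, 3 and 4 genes were lower, where 0.462% and 0.456% of all genes were. Leaving out 1 HD or wild-type library gave 0 calls among the 41 and 0 over all genes.

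The 2 EH libraries lay far apart for the cell cycle genes. In TPM, 39 of the 41 cell cycle genes were higher in EH replicate 1 than in EH replicate 2, and the 2 inhibitors were lower. The median log2 ratio of replicate 1 over replicate 2 was 1.04, against 0.01 over 17770 genes. A gap of 0.5 or more in either direction was seen for 40 of the 41 genes, where 23% of all genes had one and 15.3% had one with replicate 1 higher. In the other groups the medians were -0.07 in HD, -0.02 in wild-type motor neurons and 0.14 in ES cells, with 1, 0 and 2 genes at 0.5 or more. With 2 libraries there is no test of one against the other, and the labels give no batch for them.

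The gap was similar in size across roles other than the inhibitors. Its median was 1.02 for licensing and helicase, 0.99 for DNA synthesis, 1.14 for S- and M-phase cyclins and kinases, 1.10 for D cyclins and 1.08 for mitosis. It was widest for Ccnd1 (1.86), Bub1b (1.37) and Mcm3 (1.30) and narrowest for Gins2 (0.61), and the inhibitors had -0.67 (Cdkn1a) and -0.25 (Cdkn1b). Cdkn1a thus had 105 TPM in EH replicate 1 and 167 TPM in EH replicate 2. In the wider lists, replicate 1 was higher for 38 of 38 replication genes (median 0.69), 48 of 49 mitosis genes (median 1.04), 18 of 21 G1 to S genes (median 0.28), 4 of 5 inhibitors (median 0.51) and 5 of 15 p53 targets (median -0.13). All genes of 1 library share its RNA and are not independent measurements.

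Marker lists were set beside the gap, with sums over each whole list and counts over its tested genes. Pluripotency markers summed to 233 TPM in EH replicate 1 and 93.6 TPM in EH replicate 2, with 11 of 12 genes higher in replicate 1 and Pou5f1 at 22.5 and 6.38 TPM. Motor neuron markers summed to 2029.6 and 2483 TPM with 0 of 9 higher in replicate 1, and pan-neuronal markers to 5488 and 7037 TPM with 0 of 12 higher. Trophoblast markers summed to 909.9 and 556 TPM, with 18 of 20 higher. Neural progenitor markers summed to 234 and 239 TPM with members in both directions, 7 of 16 tested being higher: Sox2 had 12.8 and 6.14 TPM and Hes1 12.7 and 4.56 TPM, while Sox1 had 5.73 and 12.1 TPM. Endoderm markers summed to 23.7 TPM in replicate 1 and 43.8 TPM in replicate 2, with 2 of 6 higher and Gata4 at 6.53 and 19.5 TPM. Mesoderm and fibroblast markers summed to 32.1 and 23.2 TPM with 8 of 9 higher, and glial markers to 18.8 and 19.3 TPM with 3 of 8 higher. Total counts were nearly equal. The part of any of these lists in the gap was not tested.

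**Figure D3:**
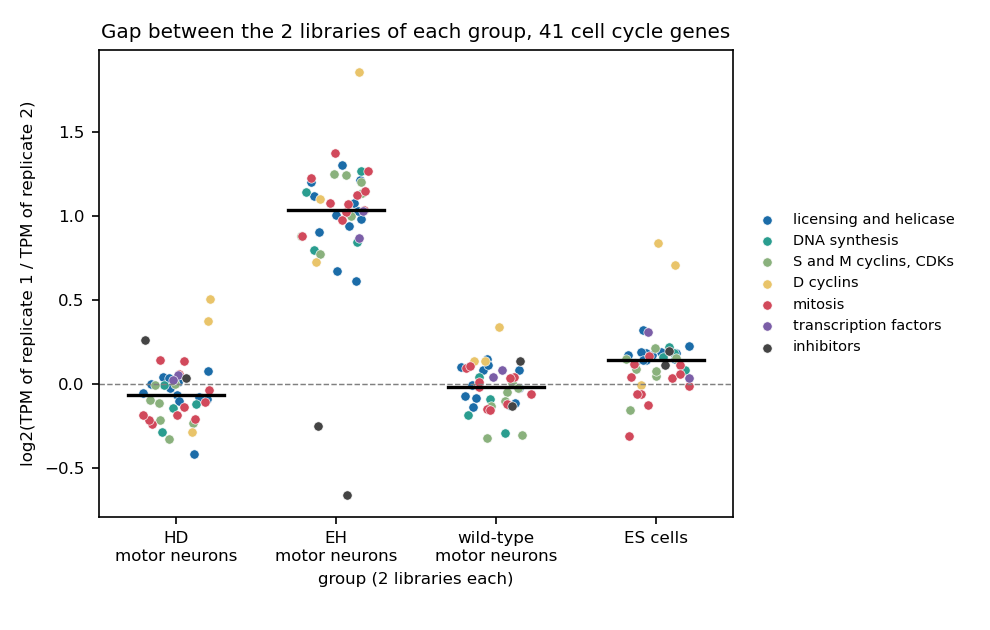
Log2 ratio of TPM between replicates 1 and 2 of each group (y axis) for the 41 cell cycle genes, coloured by role, with a bar at the median; points are spread sideways to be seen. EH points centre on 1.04, with only Cdkn1a and Cdkn1b below 0, and the medians of HD, wild-type motor neurons and ES cells lie between -0.07 and 0.14.

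Between EH and wild-type motor neurons, 1 of the 41 cell cycle genes was called, where 21.2% of 15565 genes were (9.61% higher and 11.6% lower). The inhibitor Cdkn1b was higher in EH, with 41 and 48.8 TPM in EH and 32.7 and 35.8 TPM in wild-type motor neurons (0.45 ± 0.12, edgeR adjusted p = 0.0375). Its value was 0.38 without wild-type replicate 1 and 0.53 without wild-type replicate 2. The call was lost in both fits, as were most calls over all genes. The median log2 fold change of EH over wild type was -0.0021 over the 41 genes and 0.0029 over all genes.

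The wild-type libraries lay between the EH libraries for most genes. EH replicate 1 was above and EH replicate 2 below both wild-type libraries for 32 of the 41 genes, against 6.86% of all genes, and the reverse arrangement was seen for 0 genes, against 5.34%. For 24 genes they were also above and below all 4 HD and wild-type libraries, against 3.46% of all genes, and EH replicate 1 was the highest of the 6 for 34, against 19% of all genes. Taken singly, EH replicate 1 was above both wild-type libraries for 35 genes (39.2% of all genes) and EH replicate 2 below both for 38 (45.4% of all genes). EH replicate 1 had a median of 131% of the wild-type mean and EH replicate 2 a median of 68.4%. The fitted values turn with the library kept: without EH replicate 1, 31 genes were called, 29 lower and 2 higher (37% of all genes called), and without EH replicate 2, 28 genes were called, 26 higher and 2 lower (27.3% of all genes called). In these fits the single EH library is assumed to vary like the other groups. In the fit of EH and wild type by themselves 0 of the 41 were called, against 12.9% of 16499 genes, 7.48% as lower. No direction is therefore given for EH over the 41 genes as a whole.

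A few genes held to 1 side in both EH libraries. The 3 D-type cyclins, Cdt1 and Cdkn1a were below both wild-type libraries in both, against 32.5% of all genes, and Top2a and Cdkn1b above, against 28.1% of all genes. The D-type cyclins had log2 fold changes of EH over wild type of -0.96 ± 0.53 for Ccnd1, -0.92 ± 0.30 for Ccnd2 and -0.59 ± 0.25 for Ccnd3 (edgeR adjusted p = 0.243, 0.0701 and 0.132). With 1 EH library alone, the value of Ccnd2 was -1.47 without replicate 1 and -0.51 without replicate 2. That of Top2a was 0.25 without replicate 1 and 1.30 without replicate 2, against 0.86 ± 0.30 with both (edgeR adjusted p = 0.0829). Cdkn1b had 0.59 without replicate 1 and 0.32 without replicate 2. These genes were picked for the position of the same libraries, and 1 EH library has no spread of its own. The values are therefore not separate support for a direction.

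In the wider lists, 0 of 38 replication genes and 0 of 49 mitosis genes were called between EH and wild type (medians 0.14 and 0.17), and of 21 G1 to S genes only Tfdp2 was, which was higher (0.54 ± 0.10, edgeR adjusted p = 0.0131). Among 5 other inhibitors, 2 fell. Cdkn1c had 684 and 801 TPM in HD, 151 and 31.04 in EH, and 695 and 775 in wild-type motor neurons. Both EH libraries lay below all HD and wild-type libraries, the log2 fold change was -2.99 ± 0.65 (edgeR adjusted p = 0.0215), and the EH replicates were 2.28 apart on the log2 TPM scale. The trophoblast sums given above were lower in EH too, with 14 of 16 tested trophoblast markers called lower; their part in the Cdkn1c value was not tested. Cdkn2b, another inhibitor, had 2.51 and 2.11 TPM in EH and 5.07 and 4.30 TPM in wild-type motor neurons (-0.999 ± 0.25, edgeR adjusted p = 0.0331). Of 15 p53 targets, Trp53inp1 (0.60 ± 0.10) and Gadd45a (0.45 ± 0.12) rose, and Phlda3 (-0.70 ± 0.14) and Sesn1 (-0.41 ± 0.11) fell. All of these calls were lost when either wild-type library was left out, though each value kept its direction. Most calls over all genes were lost in those fits too, so those losses do not set these genes apart. With all libraries kept, Gadd45a, Sesn1 and Cdkn2b also lost their calls in the fit of EH and wild type alone (edgeR adjusted p = 0.107, 0.0865 and 0.0717). The same 3 genes lost them with a replicate block (edgeR adjusted p = 0.0814, 0.059 and 0.0597). Tfdp2, Cdkn1c, Trp53inp1 and Phlda3 kept their calls in both.

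HD and EH, which share a genotype label, differed in 1 of the 41 cell cycle genes, where 21.2% of 15565 genes differed (11.8% higher and 9.43% lower). Top2a was lower in HD, with 59.3 and 53.9 TPM in HD and 169.8 and 80.5 TPM in EH (-1.21 ± 0.30, edgeR adjusted p = 0.0325). Its value was -0.60 without EH replicate 1 and -1.65 without EH replicate 2. Top2a lost its call when either HD library was left out. With all libraries kept, it was lost with a replicate block (edgeR adjusted p = 0.059) and in the fit of HD and EH alone (edgeR adjusted p = 0.0739). It was also lost with limma on log2(TPM + 1) (limma adjusted p = 0.0594). The next genes were Aurkb (-0.93 ± 0.33, edgeR adjusted p = 0.0924) and Mki67 (-0.83 ± 0.30, edgeR adjusted p = 0.0964), both in the mitosis group, whose median was -0.69. Over all 41 genes the median was -0.28, against -0.01 over all genes. Both HD libraries lay between the EH libraries for 27 of the 41 genes, against 12.6% of all genes. In the fit of HD and EH by themselves 0 were called, against 12.3% of 16389 genes, 5.11% as lower. Without EH replicate 1, 17 genes were called, 15 higher and 2 lower in HD, and without EH replicate 2, 35 genes were called, 1 higher and 34 lower (32.5% and 31% of all genes called).

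Beyond the 41 genes, 2 of 38 replication genes were lower in HD than in EH, Rfc1 (-0.54 ± 0.12) and Pold2 (-0.55 ± 0.15), and 2 of 49 mitosis genes, the phosphatase Cdc25b (-0.84 ± 0.17) and the kinetochore gene Cenpf (-1.15 ± 0.33). Tfdp2 was lower (-0.69 ± 0.10) and Cdkn1c higher (3.01 ± 0.65), and among p53 targets Phlda3 (0.67 ± 0.14) and Plk2 (0.63 ± 0.14) were higher and Trp53inp1 lower (-0.61 ± 0.10). The edgeR adjusted p-values of these 9 genes ran from 0.00711 (Tfdp2) to 0.0497 (Cenpf). All 9 lost their calls without HD replicate 2, and all but Trp53inp1 without HD replicate 1. Most calls over all genes were lost in those fits too. With all libraries kept, Rfc1, Pold2, Cenpf, Cdkn1c and Plk2 also lost their calls in the fit of HD and EH alone. Pold2 and Cenpf lost them with a replicate block as well. HD over wild type, EH over wild type and HD over EH share libraries pairwise, so their values are not independent of each other.

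At their promoters, most cell cycle genes carried the marks of active genes in both genotypes. Of the 41 genes, 32 have promoter entries in the RefSeq table, with 35 starts in all, and a region within 1000 bases of a start was counted. H3K4me3, a mark of active promoters, was listed at 31 of 32 in HD and 31 of 32 in wild type, where 89.1% and 89.8% of 11388 tested genes had it. H3K27ac, a mark of active promoters and enhancers, was at 27 in HD and 26 in wild type (70.9% and 69.5% of tested genes), and H3K4me1 at 25 and 27 (75% and 83.5% of tested genes). The repressive mark H3K9me3 was listed at 0 of 32 in both, against 3.75% and 6.58% of tested genes. The shares are near those of all tested genes, and with 1 list per mark and genotype there is no spread between replicates. Starts of other genes lie within 1000 bases of those of Aurka, Cdc45, Mcm7 and Orc1, so a region there cannot be assigned to 1 gene. Fold enrichments of HD and wild type come from lists that were called separately and are not compared.

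The genes without an H3K27ac region were Cdc6, Rrm2, Plk1, Bub1 and Bub1b in both genotypes and Cenpe in wild type alone; apart from Rrm2, each of these had H3K4me3. Rrm2 had no region of any list within 1000 bases, the nearest being an H3K4me1 region 19.3 kb from its start in both genotypes. Its RNA was present, at 58.6 and 71.7 TPM in HD and 75.2 and 85.7 TPM in wild-type motor neurons. Whether regions could be called at this place was not tested, so the blank is not read as absence of the marks. H3K27me3, the mark of Polycomb repression, was listed at Mki67 and Cdkn1a in both genotypes, 2 of 32 against 14.9% of tested genes in HD and 21.6% in wild type. At Cdkn1a the region was chr17:29094189-29095026 (fold enrichment 2.87, the authors' value) in HD and chr17:29093825-29095209 (5.94) in wild type. Neither region covers a RefSeq start of Cdkn1a, at bases 29090979 and 29093769, and both lie downstream of them. At Mki67 the region was chr7:135715117-135715581 (2.67) in HD and chr7:135715246-135716160 (3.07) in wild type, likewise inside the gene and not over its start. The Mki67 regions were weak, with −log10 q of 1.51 in HD (rank 4931 of 5729) and 2.35 in wild type (rank 6440 of 9365). Both genes also had H3K4me3 and H3K27ac regions in both genotypes.

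The promoter table has no entry for Mcm4, Gins1, Gins2, Ccna2, Ccne2, Ccnd1, Ccnd2, Aurkb and Foxm1. For these 9 genes, regions within 1000 bases of either gene end were taken. H3K4me3 was present at 9 of 9 in both genotypes (78.5% and 79.4% of 3217 tested genes without an entry), and H3K27ac at 7 in HD and 6 in wild type (57.6% and 55.9%). Ccnd1 and Ccnd2 had no H3K27ac region and were the 2 of the 9 with H3K27me3, where 19.3% of these genes had it in HD and 26.5% in wild type. The region at Ccnd1 was chr7:144937718-144943421 in HD (5704 bases, rank 54 of 5729 by fold enrichment) and chr7:144937635-144943969 in wild type (6335 bases, rank 33 of 9365). At Ccnd2 it was chr6:127148307-127156436 in HD (8130 bases, rank 77 of 5729) and chr6:127148295-127157703 in wild type (9409 bases, rank 67 of 9365). Long H3K4me3 regions covered the same places, 6316 and 7465 bases long at Ccnd1 and Ccnd2 in HD and 6409 and 7447 in wild type. H3K9me3 regions were also listed there, at Ccnd2 in HD and at both in wild type. Ccnd1 had 13.1 and 9.16 TPM in HD, and 16.5 and 15.02 TPM in wild-type motor neurons. Ccnd2 had 9.49 and 7.31 TPM in HD, and 8.44 and 6.66 TPM in wild-type motor neurons. Ccnd3 was higher per length than both, at 64.6 and 78.9 TPM in HD and 82.6 and 75.03 TPM in wild type, and had H3K27ac and no H3K27me3 at its promoter.

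**Figure D4:**
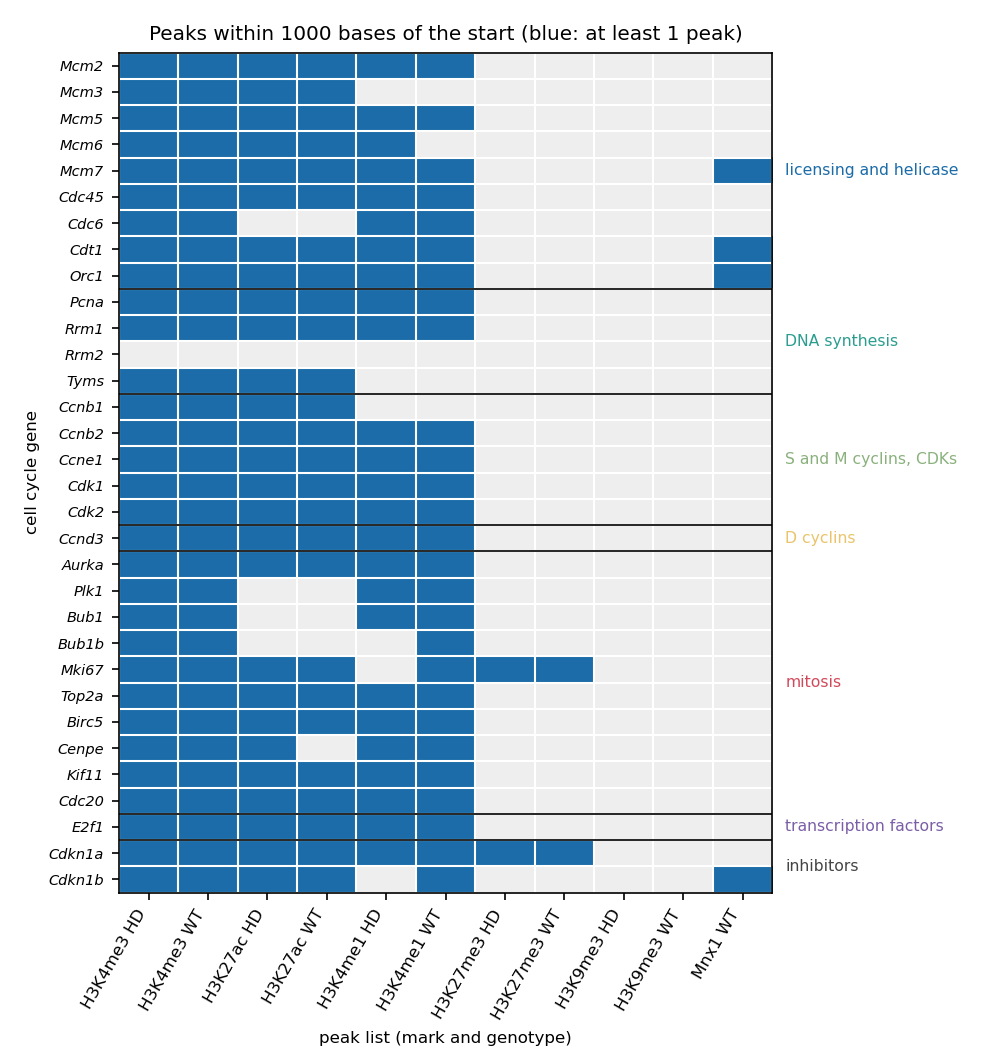
Peaks at the promoters of 32 cell cycle genes (rows, by role) in the 11 peak lists (columns, mark and genotype): blue for at least 1 region within 1000 bases of a RefSeq start. The columns of H3K4me3 are filled for 31 genes, those of H3K27me3 for Mki67 and Cdkn1a, and that of Mnx1 for Mcm7, Cdt1, Orc1 and Cdkn1b.

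Mnx1 regions were listed at 4 of 32 promoters, Mcm7, Cdt1, Orc1 and Cdkn1b, where 21.2% of tested genes had one. At Mcm7 the region was chr5:138170940-138171437 (fold enrichment 5.82, rank 429 of 5793 in the authors' list) and at Orc1 chr4:108578974-108579579 (5.72, rank 473). The Orc1 start lies 118 bases from the start of Prpf38a on the other strand, and the region covers both. At Cdt1 it was chr8:122567583-122567982 (3.75, rank 3511) and at Cdkn1b chr6:134920220-134920909 (3.33, rank 4646). Among the 9 genes without an entry, regions lay at Mcm4 (chr16:15637181-15638054, rank 3652) and Ccnd2 (chr6:127152432-127152939, rank 5107), 2 of 9 against 15.3%. Of these 6 genes, 0 were called between HD and wild type, where 0.173% of 15565 genes were. With so few calls over all genes, this count cannot show whether genes with Mnx1 regions differ from others. The log2 fold changes of HD over wild type were -0.22 ± 0.22 for Mcm7, -0.40 ± 0.35 for Orc1 and -0.21 ± 0.31 for Cdt1. They were 0.28 ± 0.12 for Cdkn1b, -0.29 ± 0.27 for Mcm4 and -0.25 ± 0.30 for Ccnd2. Of the antibodies in the labels one is against GFP and no antibody against Mnx1 is listed, which leaves the pull-down of Mnx1 unclear.

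Promoter words were counted by role, with no test. The 300 bases from 250 before to 50 after each start were searched on both strands for E2F words (TTTGGCGC, TTTCCCGC, TTTGGCGG, TTTCCCGG, TTCCCGCC and TTGGCGCC, which can overlap each other), CHR words (TTTGAA and TTCGAA) and CCAAT. An E2F word was in 31.4% of the 35 windows of cell cycle genes, in 9.14% of windows of tested genes and in 5.43% of all 32851 windows. A CHR word was in 37.1%, 13.5% and 19.2%, and CCAAT in 74.3%, 38.0% and 37.4%. By role, E2F words were in 6 of 9 licensing and helicase genes (Mcm3, Mcm5, Mcm6, Mcm7, Cdc6 and Cdt1) and 1 of 10 mitosis genes (Birc5). They were also in 1 of 4 DNA synthesis genes (Rrm1) and 3 of 5 cyclins and kinases of S and M phase (Ccnb1, Cdk1 and Cdk2). CHR words were in 8 of 10 mitosis genes and 3 of 9 licensing and helicase genes, and CCAAT in 9 of 10 and 7 of 9. For DNA synthesis and the S- and M-phase group, CHR words were in 0 of 4 and 2 of 5, and CCAAT in 3 of 4 and 4 of 5. The windows of Tyms, Ccne1, E2f1 and Cdkn1a held none of the 3 kinds.

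In the sequences printed above, Mcm6 has TTTGGCGC at bases -110 and -47, and Rrm1 TTCCCGCC at -67, counted from the start as 0. Cdk1 has TTTGAA at -71 and -15, Cdc20 at -18 and Kif11 on the other strand at -19, each with a CCAAT word, on 1 strand or the other, upstream of it. Over the whole searched window, Top2a held the most words of the set, 4 CHR and 6 CCAAT. Its CHR word at -179 and its CCAAT words at -227 and -189 lie upstream of the printed stretch. Cdkn1b had CCAAT at -161, -35 and 46, of which -35 lies in the printed stretch. Median GC content was 58% in the windows of cell cycle genes and 52.7% in all windows. A match describes letters and is not a bound site, and no match says only that these letters are not in this window.

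**Figure D5:**
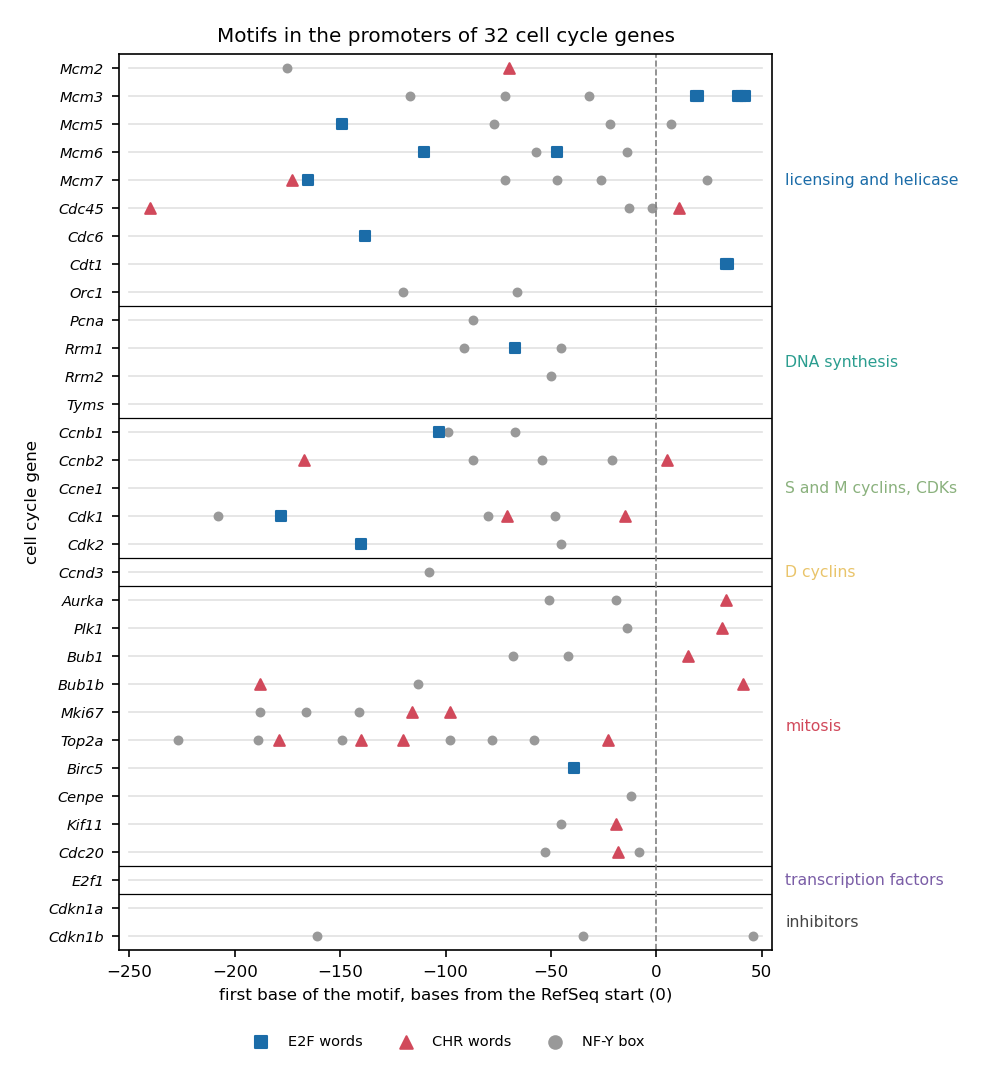
First base of each E2F word (squares), CHR word (triangles) and NF-Y box (circles) relative to the RefSeq start at 0 (x axis, bases) in the promoters of 32 cell cycle genes (rows, by role), with both starts of Mcm7, Ccnd3 and Cdkn1a drawn on 1 row. Squares lie in 6 of 9 licensing and helicase rows, 1 of 4 DNA synthesis rows, 3 of 5 rows of S and M cyclins and kinases and 1 of 10 mitosis rows. Triangles lie in 8 of 10 mitosis rows, 3 of 9 licensing and helicase rows and 2 of 5 rows of S and M cyclins and kinases.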

How the data were processed

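RNA-seq of 8 libraries gave, per gene, expected counts and TPM made by the authors with RSEM, per the file headers; STAR, RSEM, Trim Galore, SAMtools and the mm10 build are named in the submitters' processing notes, without versions. ChIP-seq gave 11 peak lists in MACS layout, each with a fold enrichment and −log10 p and q values per region from the authors, per the file columns; Bowtie2 and MACS2 are in the notes, and how the 22 ChIP and input libraries were pooled or merged is not given in the sources used here. Regions of the H3K27ac list labelled wild type are named KO inside the file, and the label was followed.

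Expected counts were rounded to whole numbers, filtered with filterByExpr and fitted with edgeR 4.0.16 (TMM, quasi-likelihood) in R 4.3.3. One fit held the 6 motor neuron libraries (15565 genes, 3 residual degrees of freedom) and one all 8 (17770 genes, 4 degrees), the second used for wild-type motor neurons against ES cells. P-values were Benjamini-Hochberg adjusted over all genes of a fit, with a threshold of 0.05. Replicate gaps used log2(TPM + 0.1). DESeq2 1.42.0 and limma 3.58.1 on log2(TPM + 1) and log2(TPM + 0.1), other scaling, no filter, a replicate block and left-out libraries were alternatives. The code was tested on simulated data. All 41 genes are reported, and from each wider list up to 4 genes with the smallest adjusted p among those called. The genes and lists were chosen with earlier results of these data known. Promoters came from RefSeq on GRCm38.p6 for 32 of the 41 genes; regions of the wild-type H3K4me3 list lay near a start in 56.0% of cases, and in 8.10% once moved by 100 kb. Replicates differed by more than counting noise, with chi-square per degree of freedom of 4.75 in HD, 53.4 in EH, 6.32 in wild-type motor neurons and 36.1 in ES cells.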

Additional observations from a re-analysis of the deposited data

Results flagged for a closer look

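HD and EH carry the same genotype label, and 10 of the reported genes differed between them in edgeR's test of HD over EH at an adjusted p of 0.05. They were the calls among the 41 cell cycle genes and the wider lists. Those lists hold 38 replication, 21 G1 to S, 49 mitosis, 5 inhibitor and 15 p53 target genes. In that test 21.2% of 15565 genes were called. For each of the 10 genes, the values of HD and EH against wild type use the same wild-type libraries, so the 2 values are not independent.

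Top2a had a log2 fold change of HD over EH of -1.21 (edgeR adjusted p = 0.0325, and 0.0739 in the fit of HD and EH alone). Its values were -0.35 for HD over wild type and 0.86 for EH over wild type. Among other genes of replication and mitosis, the value of HD over EH was -0.54 for Rfc1, -0.55 for Pold2, -0.84 for Cdc25b and -1.15 for Cenpf. Cdc25b had 12.2 and 11.6 TPM in HD, 26.7 and 19.4 TPM in EH, and 18.7 and 14.5 TPM in wild-type motor neurons. Tfdp2 differed by -0.69, with 15.2 and 15.2 TPM in HD, 23.9 and 23.0 TPM in EH, and 17.4 and 16.2 TPM in wild-type motor neurons.

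Cdkn1c differed by 3.01 (edgeR adjusted p = 0.0209), with 684 and 801 TPM in HD, 151 and 31.0 TPM in EH, and 695 and 775 TPM in wild-type motor neurons. The 20 trophoblast markers summed to 1686 and 2226 TPM in HD, 909.9 and 556 TPM in EH, and 2009 and 2267 TPM in wild-type motor neurons, and their part in the Cdkn1c value was not tested. Of the p53 targets, Trp53inp1 differed by -0.61, Phlda3 by 0.67 and Plk2 by 0.63. Plk2 had 90.6 and 83.7 TPM in HD, 48.1 and 63.7 TPM in EH, and 70.6 and 66.6 TPM in wild-type motor neurons.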

How the results depend on the processing

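Of 1084 values of single genes recomputed under the alternatives, 965 kept their direction and side of the threshold, 85 lost a call, 31 gained one and 3 changed sign. Most of these values were of wild-type motor neurons over ES cells. Apart from the fits with a library left out, 413 of 420 stayed the same there. The numbers were 60 of 64 for HD over wild type, 90 of 112 for EH over wild type and 77 of 96 for HD over EH. For both EH comparisons the share was lower still with a library left out. For wild-type motor neurons over ES cells, leaving out 1 library gave between 36 and 38 calls of 41 (61.6% to 72.9% of all genes). The 3 changes of sign were in genes without a call, whose values with 1 library left out ran from -0.17 to 0.32 for Ccne2 and from -0.051 to 0.61 for Ccnd2. Between HD and wild type, 4 genes were called in the fit of both groups alone (2.21% of all genes), and leaving out 1 library gave 0 to 4 calls (0 to 2.02%). With 1 library left out, EH over wild type gave 0 to 31 calls (0.598% to 37% of all genes) and HD over EH 0 to 35 (1.74% to 32.5%). For EH over wild type, DESeq2 called 3 genes (21.9% of all genes), no filter on low counts 3 (14.6%), limma on log2(TPM + 1) and log2(TPM + 0.1) 0 (16.5% and 16%) and the fit of both groups alone 0 (12.9%). For HD over EH the numbers were 3 with DESeq2 (22.3%), 5 without the filter (14.6%), 0 with limma on these scales (17.5% and 17.3%) and 0 with both groups alone (12.3%). The causes of these differences in calls were not tested.

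The labels do not say that replicate numbers mark a shared culture. With a replicate block, 0 genes were called for EH over wild type (13.4% of all genes) and 0 for HD over EH (13.8%), and 0 for HD over wild type as without it (0 of all genes). Deviations of equal numbers correlated at -0.29 between HD and EH, 0.33 between HD and wild type and -0.19 between EH and wild type. With the EH numbers crossed, an alternative chosen after seeing the data, 0, 1 and 1 genes were called for HD over wild type, EH over wild type and HD over EH, as were 25, 4289 and 4218 of all genes. The fits of HD over wild type without an EH library were also chosen after seeing the data.

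At promoters, a window of 500 bases left 16 genes with H3K4me1 and 1 with H3K27me3 in HD, and a −log10 q of 5 or more left 1 with H3K27me3 in HD and 1 in wild type. The gene left with H3K27me3 was Cdkn1a each time, and Mki67 was lost. The median gap between wild-type replicates was -0.0889 on TMM-scaled CPM. Replicates differed by more than counting noise in every group, with a chi-square per degree of freedom of 4.75 in HD, 53.4 in EH, 6.32 in wild-type motor neurons and 36.1 in ES cells. The part of depth in the errors was not tested.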
